A study of Mus musculus with 12 samples.

Results

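This account follows 46 interferon response genes through the livers of C57BL/6J mice fed a very-long-chain polyunsaturated fatty acid (VLCPUFA) oil. The genes were given as a list of type I and type II interferon-induced genes and were found by symbol among the 49398 genes of the deposited count table. All 46 were found, and all 46 were among the 13814 genes with enough reads to be tested.

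The 12 livers came from wild-type mice aged 9 months, 2 females and 2 males on each of 3 diets. For 8 weeks the mice ate AIN-93G diet with none (control), 1% or 5% of the VLCPUFA concentrate by weight. All were fasted for 5 hours before the liver was taken. Animals are named by number. N979 and N980 (females) with N967 and N968 (males) ate the control diet. N983 and N984 (females) with N971 and N972 (males) ate 1% oil. N987 and N988 (females) with N975 and N976 (males) ate 5% oil. Whole liver was sequenced, so the values mix hepatocytes with all other cells of the organ, at 5291385 to 15674130 reads per liver. The labels give neither the hour of collection nor any infection or inflammatory challenge.

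Interferons are secreted proteins that warn cells of infection. Type I interferons act through a receptor pair, Ifnar1 and Ifnar2, and the kinases Jak1 and Tyk2 to form a complex that includes Stat2 and Irf9 and binds a DNA element called the interferon-stimulated response element (ISRE). Type II interferon acts through Ifngr1 and Ifngr2 and leads to binding at the gamma-activated site (GAS). The induced genes encode sensors of foreign nucleic acid, proteins that block translation or degrade viral RNA, the ubiquitin-like modifier Isg15, guanylate-binding proteins (GBP) and immunity-related GTPases (IRG), and parts of the antigen-processing machinery. Many of them are expressed at a low level without infection, in hepatocytes and in the resident macrophages of the liver, the Kupffer cells.

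The response elements can be read in the promoters of several of these genes. In RefSeq promoter windows of 300 bases on build GRCm38.p6, running from 250 bases before to 50 bases after the start, 35 of the 46 genes had an entry. The ISRE core, searched as GAAANNGAA on both strands, was present for 18 of these 35 genes (51.4%) and for 9.76% of all 27025 genes in that table. The GAS core, searched as TTCNNNGAA, which reads the same in form on both strands, was present for 8 of 35 (22.9%) and for 9.55% of all genes. A match is a description of letters and not evidence that a factor binds. The stretches below are shown because they lie before the 3 genes that passed the test at 5% and hold the ISRE core, and are read along each gene's own strand, with every match to the core in capitals. They lie at chr19:34583374-34583435 on the plus strand for Ifit3 (155 to 94 bases before the start), chr4:156200857-156200915 on the minus strand for Isg15 (97 to 39 bases before) and chr19:34640767-34640826 on the plus strand for Ifit1 (122 to 63 bases before).
Ifit3: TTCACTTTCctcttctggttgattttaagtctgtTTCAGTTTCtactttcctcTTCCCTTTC
Isg15: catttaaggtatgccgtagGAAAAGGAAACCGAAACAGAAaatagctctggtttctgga
Ifit1: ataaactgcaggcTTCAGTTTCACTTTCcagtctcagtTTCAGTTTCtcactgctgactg
Each of the 3 stretches holds 3 matches to the ISRE core. In Isg15 each match overlaps the next, and in Ifit1 those beginning 109 and 103 bases before the start overlap. None of the 3 windows holds the GAS core. The gene that lay farthest above control at 5%, Igtp, has 1 match to each core, with the GAS letters first, at chr11:58199497-58199555 on the plus strand (59 to 1 bases before the start). It was chosen for display after its values were seen. Of 6 GBP and IRG genes with an entry, 5 held the ISRE core and 2 the GAS core. Of 10 IFIT, OAS, MX and Isg15 genes with an entry, 7 held the ISRE core and 2 the GAS core. Of the 6 genes that passed as lower at 5%, 4 had an entry, and Irf7 held neither core. Ifi47, above control at 5%, also held neither. A link between element and direction was not tested.
Igtp: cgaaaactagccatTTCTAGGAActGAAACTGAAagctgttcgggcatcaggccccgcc

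The first comparison, of the 5% diet with control, asks how the higher dose of oil left these genes. Of the 46 genes, 6 fell and 0 rose past an adjusted p of 0.05 in edgeR's quasi-likelihood test with sex in the model. The genes that fell were Ifit3, Isg15, Ifit1, Dhx58, Ifi27 and Irf7. Over all genes tested 1.27% passed as lower and 1.19% as higher, so the share of lower calls among the interferon genes (13%) lay above the background. The list was chosen with earlier results of these data known, so this share and those below describe the list and are no independent test. Log2 fold changes were below 0 for 39 of the 46, against 48.5% of all genes, and their median was -0.60, against 0.01 over all genes. On the deposited CPM, where the median of all genes was itself shifted to 0.17, 30 of 43 tested members lay below 0 and their median was -0.36. An unadjusted p below 0.05 with a lower value was found for 22 of the 46 (7.41% of all genes) and with a higher value for 2, Igtp and Ifi47 (7.14% of all genes). All 4 livers at 5% lay below all 4 controls for 11 genes, against 2.98% of all genes: Irf7, Dhx58, Ifit1, Ifit3, Oas1a, Oasl2, Mx2, Isg15, Trim30a, Ifi27 and Ifi44. For none of the 46 did all livers at 5% lie above all controls, against 3.11% of all genes. By size, 9 genes were lower by at least 1 on the log2 scale (3.87% of all genes) and 0 were higher by that much (3.23%). The 13 Kupffer cell markers, 0 of them past the threshold, were also all below 0 at 5% (median -0.48), with a summed level of 342 to 709 CPM in controls against 173 to 437 CPM at 5%. In whole liver, fewer cells of a type and less RNA per cell cannot be told apart, and the part of these markers in the interferon values was not tested.

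**Figure D1:**
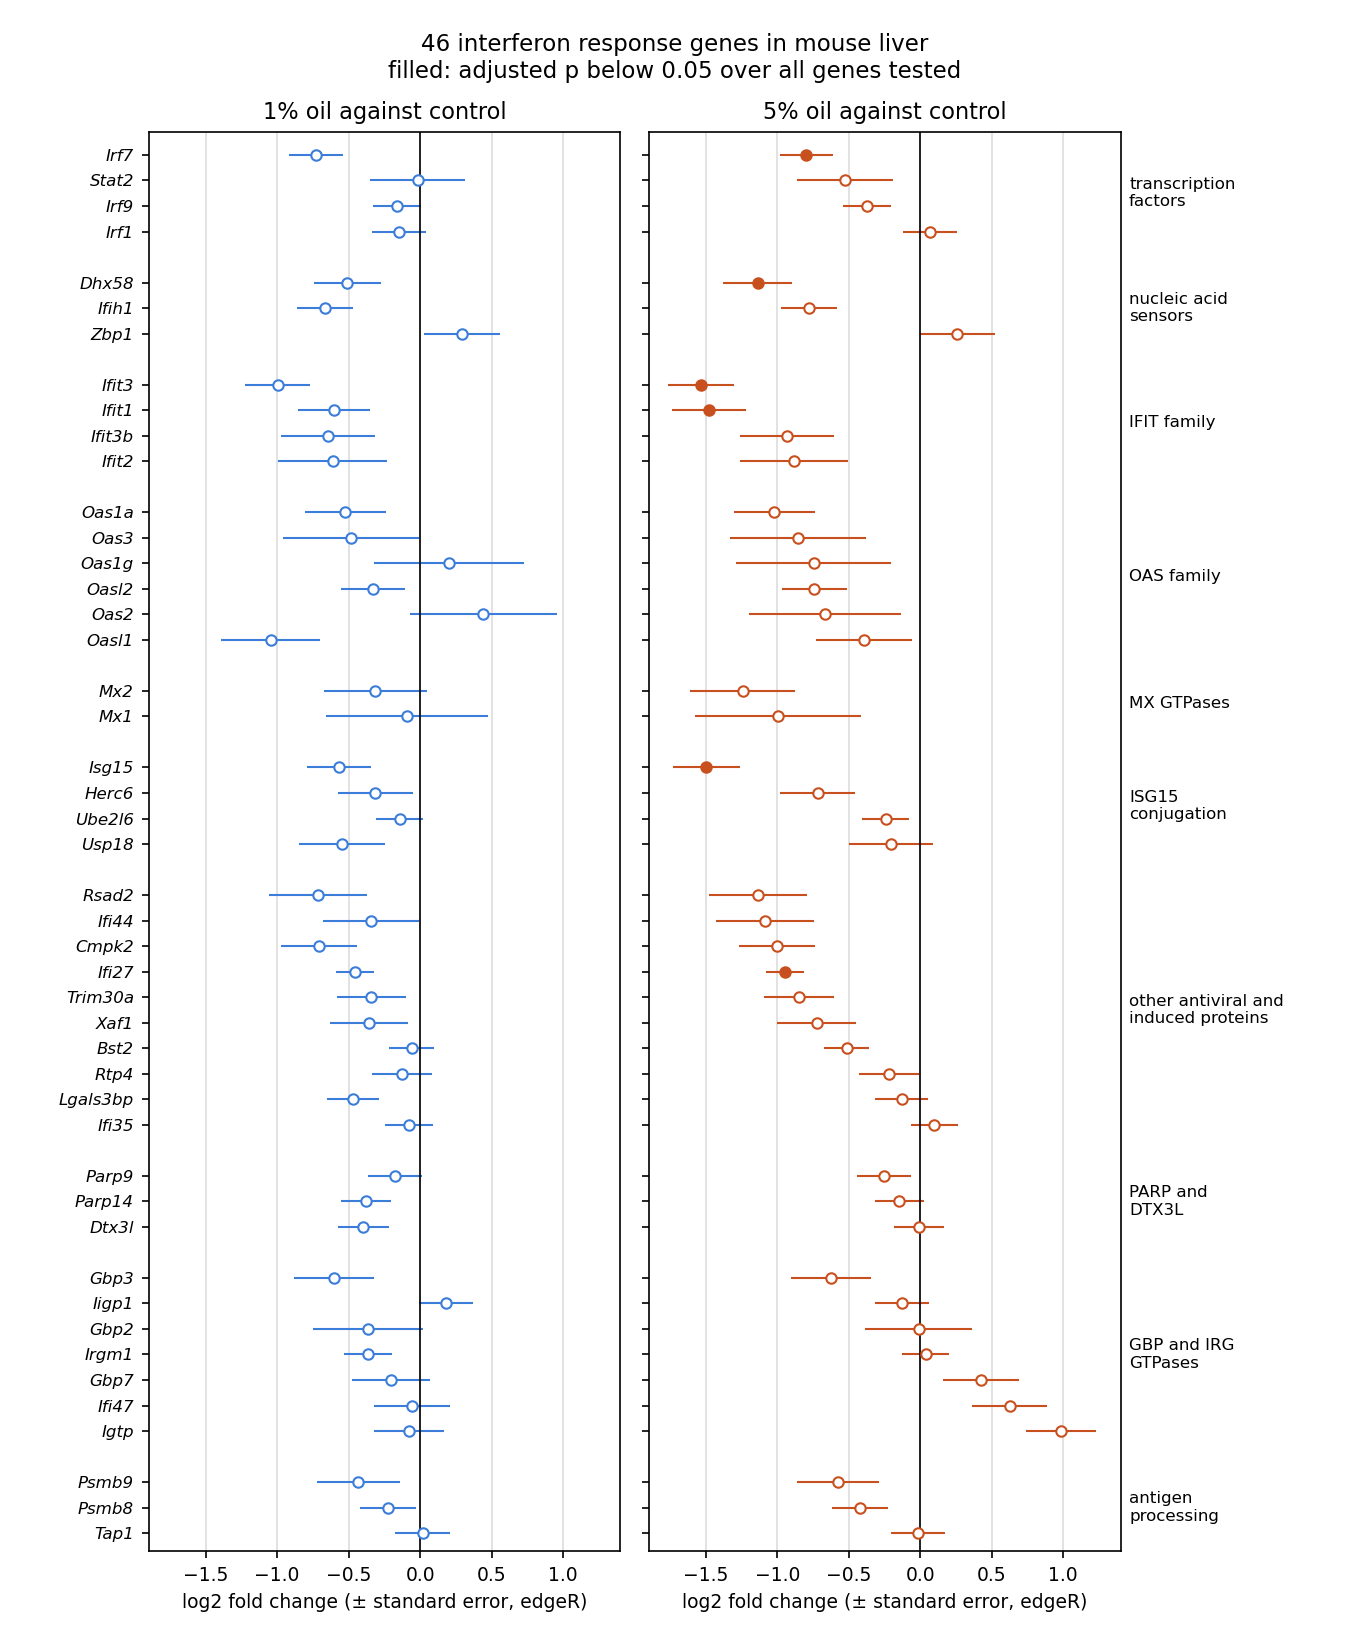
Log2 fold change for each of the 46 genes, at 1% oil (left) and 5% oil (right) against the same 4 control livers, grouped by role. Bars give a standard error derived from the edgeR F statistic, and filled points passed an adjusted p of 0.05. At 5% the IFIT, OAS, MX and ISG15 groups lie to the left of 0, and Igtp, Ifi47 and Gbp7 lie farthest to the right.

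Interferons themselves were hardly read. Of 21 interferon genes, 20 had 0 reads in all 12 livers, Ifnb1 among them, and Ifng, the type II interferon, had 4 reads in all. A count of 0 allows up to 3 reads in a library, which is 0.184 to 0.544 CPM here (read counts scaled to a common library size with TMM factors). Of 8 tested receptor and kinase genes 0 passed the test at 5%, and 6 lay above 0. Ifnar1, a subunit of the type I receptor, stood at 33.9, 24.1, 28.2 and 25.6 CPM in N979, N980, N967 and N968 and at 33.7, 28.4, 33.2 and 37.5 CPM in N987, N988, N975 and N976. Its log2 fold change was 0.25 ± 0.17 (edgeR adjusted p = 0.561), and that of Ifngr1, a subunit of the type II receptor, was 0.08 ± 0.18 (0.916). The levels of both receptors overlapped between the diets.

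Among the transcription factors of the list, 1 of 4 passed. Irf7, which drives further interferon production and is itself interferon-induced, was read at 32.1, 28.1, 26.6 and 26.2 CPM in controls N979, N980, N967 and N968. It was 16.8, 20.1, 18.4 and 13.02 CPM at 1% (N983, N984, N971, N972) and 17.997, 19.5, 10.1 and 17.6 CPM at 5% (N987, N988, N975, N976). Every oil-fed liver lay below every control, and the levels at 1% and 5% overlapped. At 5% Irf7 fell by 0.80 ± 0.19 on the log2 scale (edgeR adjusted p = 0.038, n = 4 per diet). This call was kept without N971 or N972 and lost without any other single liver, with adjusted p up to 0.105 (without N968). Stat2 and Irf9, parts of the ISRE-binding complex, did not pass: Stat2 stood at -0.53 ± 0.34 and Irf9 at -0.37 ± 0.17. Stat2 was read at 149 CPM in control N979 and at 53.1 to 58 CPM in the other 3 controls. Irf1, a factor induced mainly by type II interferon, stood at 0.07 ± 0.19.

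Of the 3 sensors of foreign nucleic acid 1 passed at 5%. Dhx58 (LGP2), a helicase that modulates RNA sensing, was read at 13.6, 10.1, 13.01 and 13.5 CPM in N979, N980, N967 and N968, at 8.16, 8.90, 10.9 and 7.20 CPM at 1% in N983, N984, N971 and N972, and at 4.75, 7.51, 3.59 and 6.70 CPM at 5% in N987, N988, N975 and N976. The 5% livers lay below all controls, whereas 1% male N971 lay above control female N980. Dhx58 fell by 1.14 ± 0.24 at 5% (edgeR adjusted p = 0.0231), a call lost without N979, N967, N968, N987 or N976 (adjusted p from 0.05002 to 0.0713). Ifih1 (MDA5), the sensor of long double-stranded RNA, stood at -0.78 ± 0.20 and missed the threshold narrowly (0.0527). Without control N979, whose 15.05 CPM lay below the 24.6 to 33.5 CPM of the other controls, Ifih1 stood at -0.94 and passed (0.0133). Zbp1, a sensor of Z-form nucleic acid, stood at 0.26 ± 0.26.

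The IFIT family, proteins that bind viral RNA and block its translation, held the lowest fold change of the 46, that of Ifit3. This gene was read at 20.1, 25.7, 22.4 and 22.6 CPM in N979, N980, N967 and N968, at 11.4, 9.68, 15.5 and 8.68 CPM at 1% in N983, N984, N971 and N972, and at 9.31, 7.73, 4.86 and 9.22 CPM at 5% in N987, N988, N975 and N976. No oil-fed liver reached the lowest control. At 5% Ifit3 fell by 1.53 ± 0.23 on the log2 scale (edgeR adjusted p = 0.00434). Ifit1 was read at 10.3, 9.00, 11.3 and 8.91 CPM in N979, N980, N967 and N968, at 6.31, 5.78, 7.60 and 6.21 CPM in N983, N984, N971 and N972, and at 4.50, 2.06, 2.66 and 4.73 CPM in N987, N988, N975 and N976. The 3 diets did not overlap for Ifit1, with the 1% livers between the others, and the 5% fall was 1.48 ± 0.26 (adjusted p = 0.00874). The other 2 family members had few reads and did not pass: Ifit2 at -0.88 ± 0.38 and Ifit3b at -0.93 ± 0.33. Control female N979 had 1.81 CPM of Ifit2 and 1.99 CPM of Ifit3b, against 2.90 to 5.70 and 4.30 to 5.00 CPM in the other controls. Ifit3 and Ifit3b are closely related copies whose identity was not measured here, so the split of reads between them is uncertain.

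**Figure D2:**
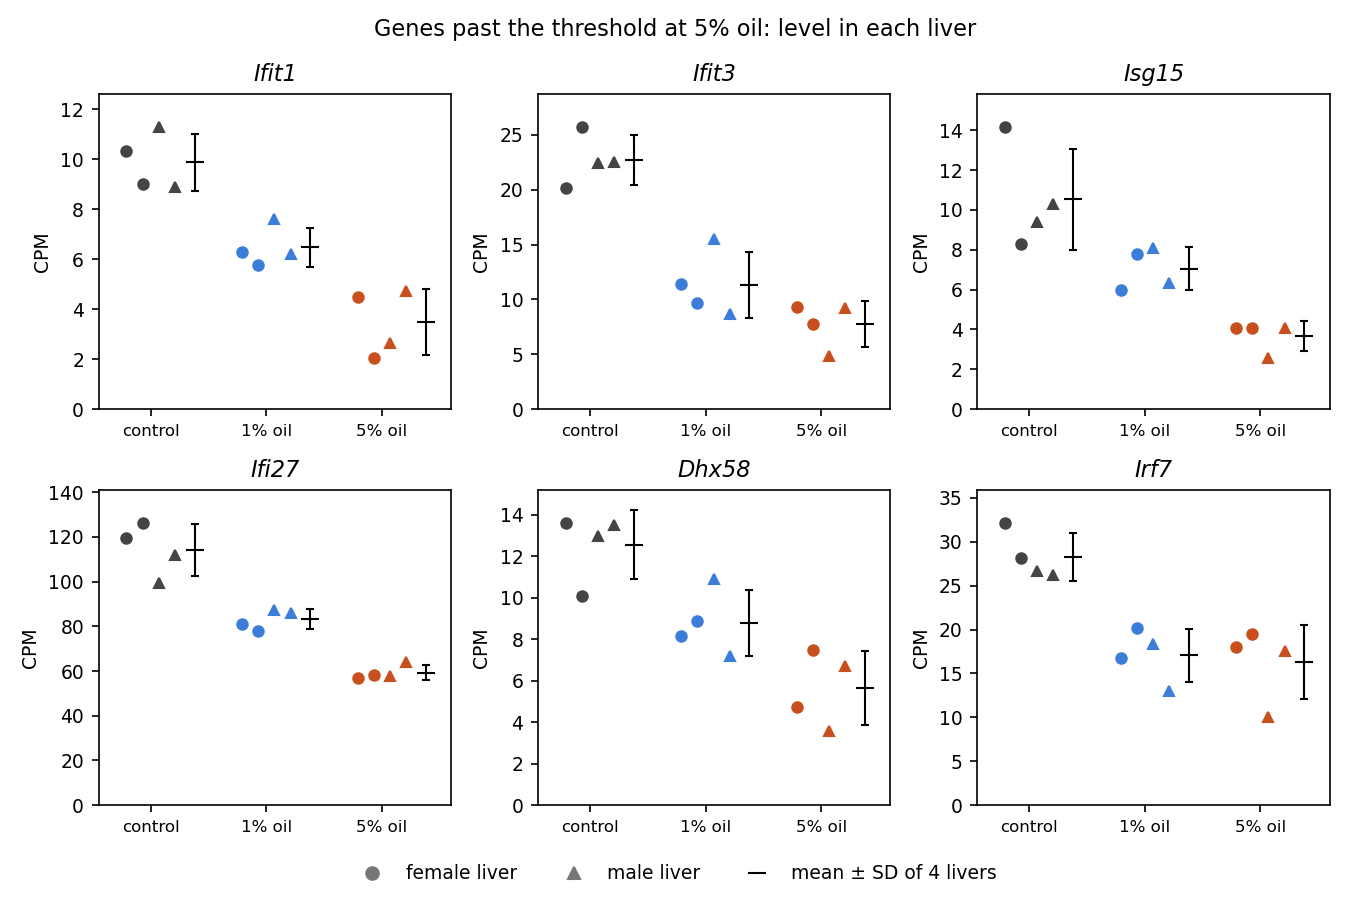
Level in each liver (CPM, TMM-scaled, axes from 0) of the 6 genes past the threshold at 5% oil; circles are females, triangles males, and the bar is the mean ± SD of 4 livers. All 4 livers at 5% lie below all 4 controls in each panel, and for Ifit1, Isg15 and Ifi27 the 1% livers lie between the other diets without overlap.

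The oligoadenylate synthetases, which make the second messenger that activates RNase L, had 0 of 6 genes past the threshold and all 6 below 0 at 5%, with a median log2 fold change of -0.74. Oas1a had the smallest p. It was read at 5.98, 6.00, 3.60 and 3.33 CPM in N979, N980, N967 and N968, at 4.85, 3.44, 3.07 and 1.68 CPM in N983, N984, N971 and N972, and at 2.19, 2.87, 1.39 and 2.52 CPM in N987, N988, N975 and N976. The 5% livers lay below all controls, by -1.02 ± 0.28 on the log2 scale (edgeR adjusted p = 0.0771). The family was uneven between animals: Oas2 was read at 21.0 CPM in control N979 and 3.92 to 4.90 CPM in the other controls, and at 14.9 and 22.02 CPM in the 1% females N983 and N984 against 7.00 and 3.35 CPM in the 1% males. Oas1a and Oas1g are related copies whose identity was not measured here, and their separate values are uncertain. Oasl1, a family member without synthetase activity, was lowest at 1%, with 3.46 to 7.10 CPM against 5.08 to 14.1 CPM in controls.

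The 2 MX genes belong to a family of dynamin-like GTPases that trap viral ribonucleoprotein, and both were below 0 without passing. Only their RNA was read, and whether mice of this strain make a working MX protein was not tested. Mx2 was read at 9.25, 3.4996, 4.08 and 3.87 CPM in N979, N980, N967 and N968, at 4.23, 5.00, 4.87 and 2.07 CPM in N983, N984, N971 and N972, and at 1.62, 3.46, 1.39 and 2.03 CPM in N987, N988, N975 and N976. Control N979 stood well above all others, and the highest 5% liver lay just under the lowest control. The log2 fold change was -1.24 ± 0.37 (edgeR adjusted p = 0.0999). Mx1 stood at -0.99 ± 0.58, with 0.322 to 5.26 CPM among the controls alone.

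Isg15, the ubiquitin-like protein that is attached to other proteins after interferon, was read at 14.1, 8.30, 9.40 and 10.3 CPM in N979, N980, N967 and N968. It was 6.00, 7.81, 8.11 and 6.31 CPM at 1% (N983, N984, N971, N972) and 4.06, 4.05, 2.55 and 4.06 CPM at 5% (N987, N988, N975, N976). The 3 diets did not overlap, and Isg15 fell by 1.496 ± 0.23 at 5% (edgeR adjusted p = 0.00524). The genes of its conjugation cycle did not pass. Ube2l6, its conjugating enzyme, stood at -0.24 ± 0.16, Herc6, its ligase in mice, at -0.72 ± 0.26, and Usp18, which removes Isg15 and restrains the type I receptor, at -0.20 ± 0.30. Usp18 was split within the 5% diet, with 14.4 and 11.04 CPM in females N987 and N988 and 3.82 and 5.96 CPM in males N975 and N976.

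Of 10 other antiviral and induced genes, 1 passed and 9 were below 0 at 5%. Ifi27, a small mitochondrial membrane protein strongly induced by type I interferon, was read at 119, 126, 99.4 and 112 CPM in N979, N980, N967 and N968, at 81.1, 77.8, 87.5 and 86.0 CPM in N983, N984, N971 and N972, and at 57.0, 58.2, 57.9 and 64.1 CPM in N987, N988, N975 and N976. The 3 diets formed separate steps, and the 5% fall was 0.94 ± 0.13 on the log2 scale (edgeR adjusted p = 0.00282). Rsad2 (viperin), which makes a chain-terminating nucleotide, stood at -1.13 ± 0.34, and its genomic neighbour Cmpk2, a mitochondrial nucleotide kinase, at -1.003 ± 0.27 (adjusted p = 0.0648). Ifi44 stood at -1.08 ± 0.34, Trim30a at -0.85 ± 0.24, Xaf1 at -0.73 ± 0.28 and Bst2 (tetherin), which holds budding virus at the cell surface, at -0.52 ± 0.16, none past the threshold. Rtp4, a chaperone of membrane receptors, stood at -0.22 ± 0.21, Lgals3bp, a secreted glycoprotein, at -0.13 ± 0.18 and Ifi35 at 0.10 ± 0.17. On the deposited CPM, Lgals3bp lay above 0 and 8 of the 10 below.

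The ADP-ribosyltransferases Parp9 and Parp14 and the ubiquitin ligase Dtx3l, the partner of Parp9, lay near 0 at 5%, with 0 of 3 past the threshold, all 3 below 0 with TMM factors and 1 of 3 on the deposited CPM. Parp9 was read at 31.2, 44.9, 54.5 and 38.3 CPM in N979, N980, N967 and N968, at 38.2, 36.7, 31.7 and 42.0 CPM in N983, N984, N971 and N972, and at 34.3, 26.1, 35.8 and 46.1 CPM in N987, N988, N975 and N976. The diets overlapped, and the log2 fold change at 5% was -0.25 ± 0.19 (edgeR adjusted p = 0.61). Parp14 stood at -0.15 ± 0.17 and Dtx3l at -0.01 ± 0.18.

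The GBP and IRG GTPases, which coat and disrupt the vacuoles of intracellular microbes and are induced above all by type II interferon, had 0 of 7 past the threshold at 5%, with a median of 0.04. Of the 7, 4 lay above 0 with TMM factors and 6 on the deposited CPM, where Gbp2 and Iigp1 changed sign. Igtp (Irgm3) was read at 45.5, 37.7, 29.8 and 30.8 CPM in N979, N980, N967 and N968, at 54.7, 38.1, 24.4 and 23.7 CPM in N983, N984, N971 and N972, and at 88.5, 81.8, 32.1 and 83.7 CPM in N987, N988, N975 and N976. Of the 5% livers 3 lay far above all others, whereas male N975 lay among the controls. The log2 fold change of Igtp was 0.99 ± 0.25 (edgeR adjusted p = 0.0517), and without N975 it was 1.19 and passed (0.00693). Ifi47, another IRG protein, stood at 0.63 ± 0.26 and Gbp7 at 0.42 ± 0.27. Irgm1 (0.04 ± 0.16), Gbp2 (-0.01 ± 0.37) and Iigp1 (-0.13 ± 0.19) were near 0, and Gbp3 was lower at -0.63 ± 0.28. The positive signs of Igtp, Ifi47, Gbp7 and Irgm1 were the same with TMM, RLE and upper-quartile factors and on the deposited CPM.

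**Figure D3:**
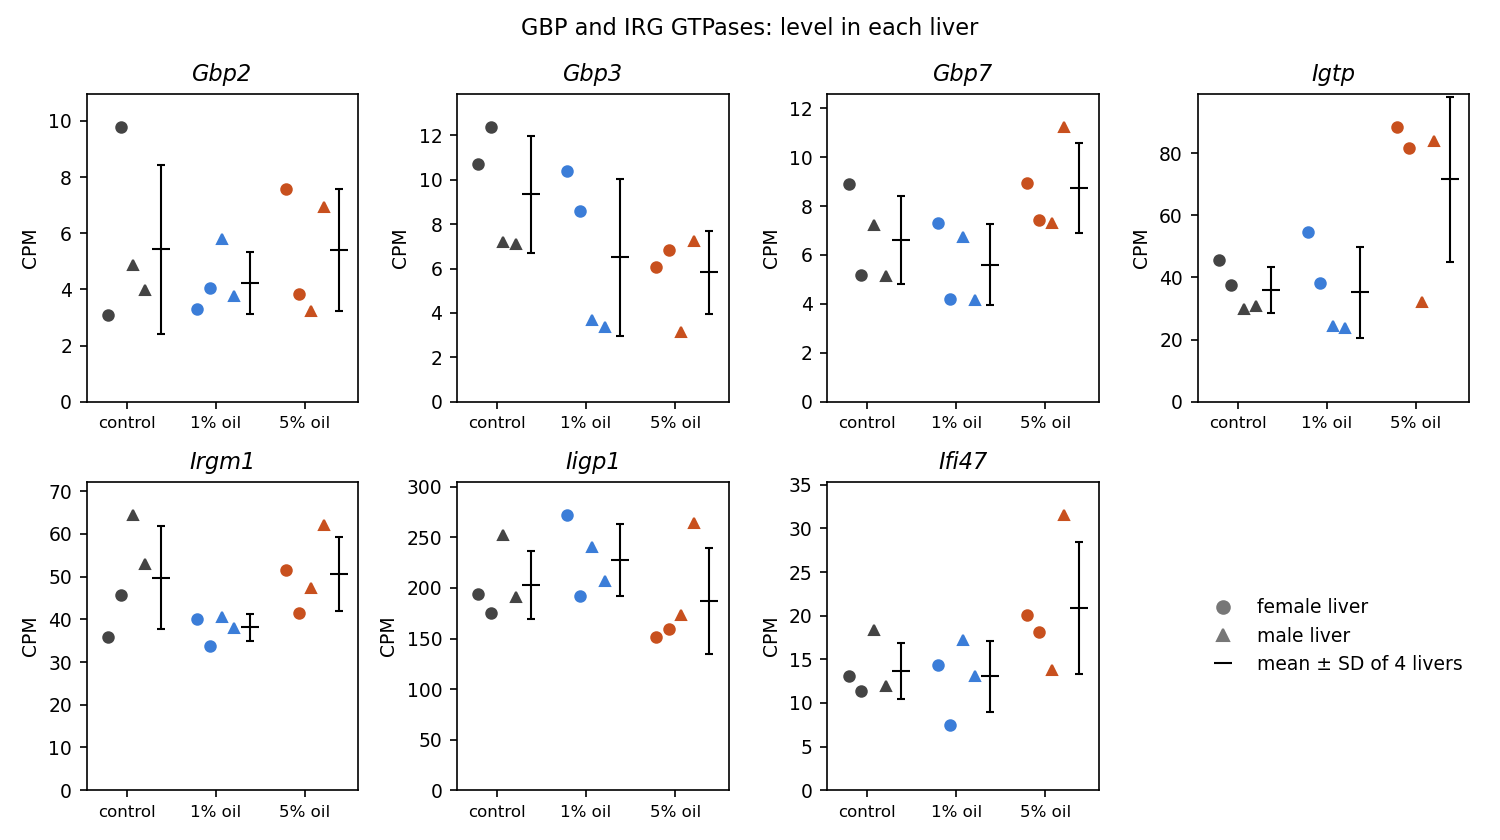
Level in each liver (CPM, TMM-scaled, axes from 0) of the 7 GBP and IRG GTPases; circles are females, triangles males, and the bar is the mean ± SD of 4 livers. Igtp stands at 81.8 to 88.5 CPM in 3 livers at 5% oil and at 32.1 CPM in male N975, and all 7 genes overlap between 5% oil and control.

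The 3 antigen-processing genes were below 0 at 5% without passing, and Tap1 lay above 0 on the deposited CPM. Psmb8, a catalytic subunit of the immunoproteasome, was read at 34.1, 26.8, 19.1 and 22.1 CPM in N979, N980, N967 and N968, at 22.01, 30.9, 19.4 and 15.5 CPM in N983, N984, N971 and N972, and at 23.4, 22.6, 10.4 and 19.6 CPM in N987, N988, N975 and N976. The levels overlapped between the diets (-0.42 ± 0.20, edgeR adjusted p = 0.343). Psmb9, another immunoproteasome subunit, stood at -0.58 ± 0.29, and the peptide transporter gene Tap1 at -0.01 ± 0.19.

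The second comparison, of the 1% diet with control, asks the same of the lower dose. Of the 46 genes, 0 passed the edgeR test in either direction (0.0869% of all genes passed as lower and 0.138% as higher). An unadjusted p below 0.05 was found for 14 lower genes (6.55% of all genes) and for 0 higher genes (4.52%). DESeq2 called 3, Irf7, Ifi27 and Ifit3, and 266 genes in all, against 31 in all by edgeR. Log2 fold changes were below 0 for 41 of 46, against 49.9% of all genes, with a median of -0.35 against 0.00. All 1% livers lay below all controls for Irf7, Ifit1, Ifit3, Isg15 and Ifi27, 5 genes (2.03% of all genes), and above all controls for 0 (1.83%). Ifit3 came nearest to the threshold, at -0.998 ± 0.23 (adjusted p = 0.0891), and passed without N979 (0.0498) or without N975 (0.0477). Ifih1 also passed without N979 (-0.82, adjusted p = 0.038). Irf7 stood at -0.73 ± 0.19, Isg15 at -0.57 ± 0.23, Ifit1 at -0.60 ± 0.25 and Oasl1 at -1.04 ± 0.35. Both doses were compared with the same 4 control livers, so the 2 sets of values are not independent of each other.

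The 5% diet against the 1% diet compares the doses without the controls. Here too 0 of 46 passed (0.471% of all genes passed as lower and 0.861% as higher). An unadjusted p below 0.05 was found for 8 lower genes, 17.4% of the 46 against 7.77% of all genes, and for 5 higher genes, 10.9% against 10% of all genes. DESeq2 called 4, with Ifit1, Isg15 and Ifi27 lower and Igtp higher, and 699 genes in all, against 184 in all by edgeR. Values were below 0 for 34 of 46, against 49.6% of all genes, with a median of -0.24. All 5% livers lay below all 1% livers for Ifit1, Isg15 and Ifi27 (3.55% of all genes) and above them for Irgm1 (4.1%). Isg15 stood at -0.93, Ifit1 at -0.87, Ifi27 at -0.49 and Ifit3 at -0.54, while Igtp stood at 1.06 ± 0.25 (adjusted p = 0.0513). The call of Igtp was made without N979 (0.041), without N980 (0.0495) or without N975 (0.00718). Isg15 also passed without N979 (0.0415) and Ifi47 without N975 (0.0459). Along the 3 diets, the mean CPM went down from control to 1% and again from 1% to 5% for 28 of the 46 genes (60.9%), against 15.8% of all genes. It went up in both steps for 0 of the 46, against 15.1% of all genes.

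A score for each liver, the mean over the 46 genes of the log2 CPM minus that gene's mean over the 12 livers, sets the animals side by side. It was 0.42, 0.30, 0.28 and 0.10 in controls N979, N980, N967 and N968, a mean of 0.27 ± 0.13 (SD, n = 4). It was 0.04, 0.04, 0.06 and -0.30 at 1% in N983, N984, N971 and N972 (-0.04 ± 0.18) and -0.22, -0.08, -0.57 and -0.08 at 5% in N987, N988, N975 and N976 (-0.23 ± 0.23). The controls lay above all oil-fed livers, and 1% male N972 lay among the 5% livers. On the deposited CPM the order of the diet means was the same but the lowest control (-0.04) lay below the highest 5% liver (0.08). Male N975 had the lowest value of the 12 livers for 17 of the 46 genes, and female N979 the highest for 15. Control N979 also had the fewest reads of the 12 livers (5291385). The nuclear noncoding RNAs Malat1, Neat1 and Kcnq1ot1 summed to 897 CPM in N979, against 296 to 482 CPM in the other controls. Diet means of that sum were 504 (control), 532 (1%) and 540 CPM (5%), with 1232 CPM in 5% female N988. The part of read depth or of these RNAs in the score was not tested. As a description over 12 livers that share their diets, a gene's level had a median correlation of 0.51 with the mean of the other members, and of 0.40 once each diet's mean was taken out.

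**Figure D4:**
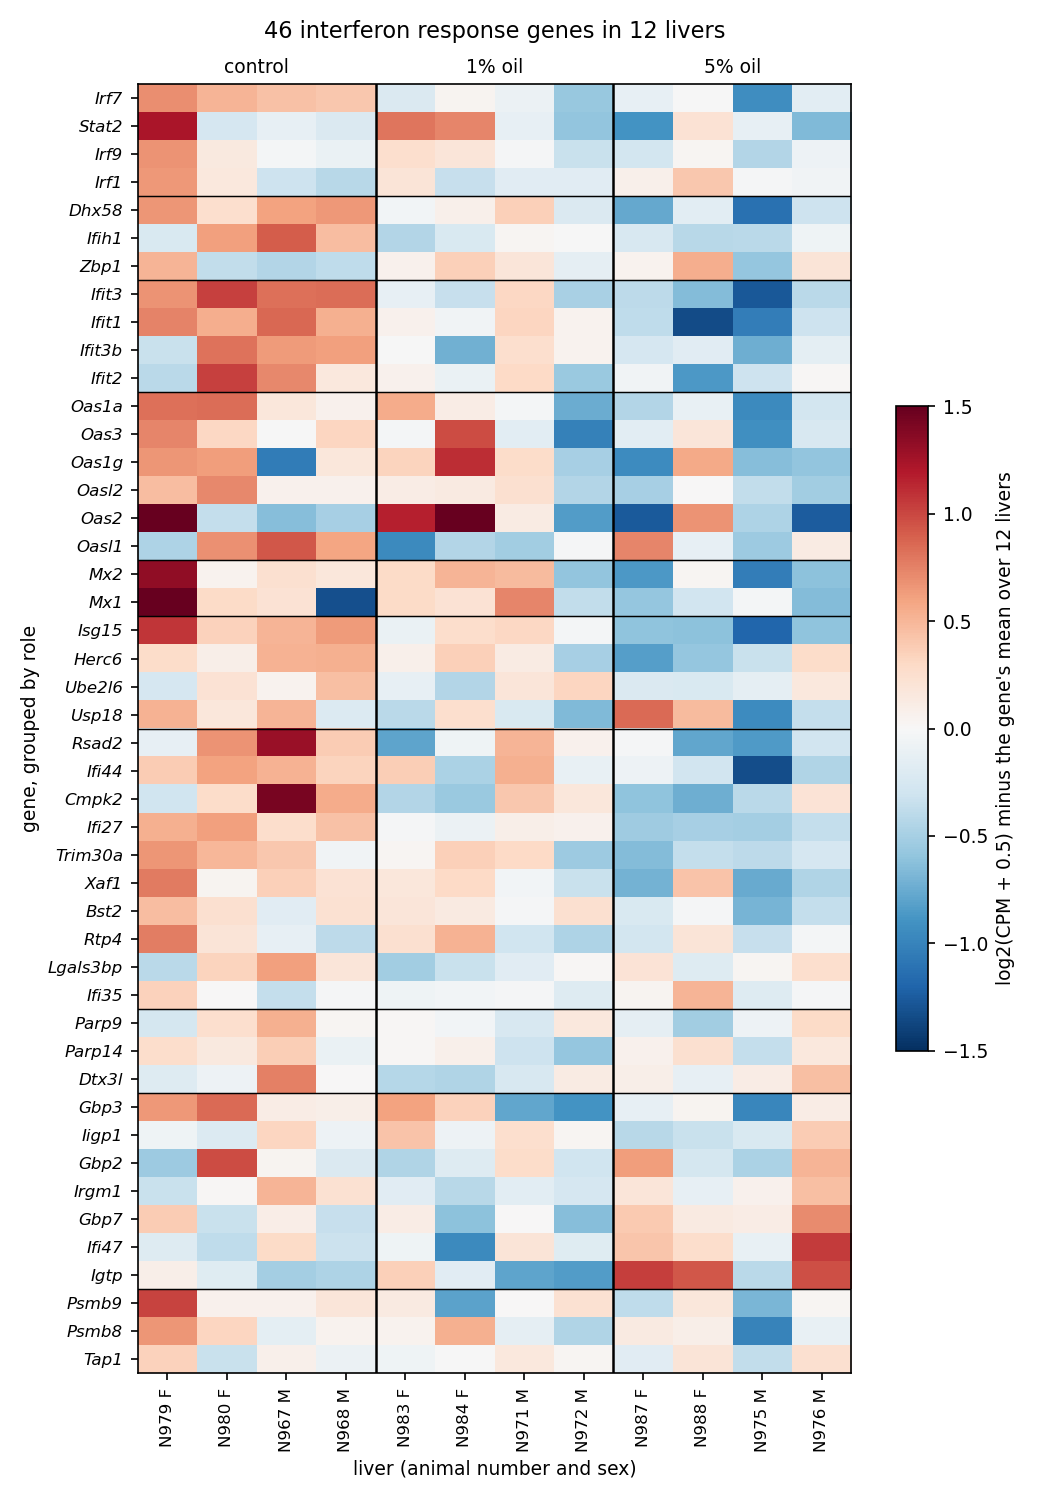
Each row is a gene, each column a liver, and colour gives log2(CPM + 0.5) minus the gene's mean over the 12 livers, with colour saturating at 1.5 in either direction; horizontal lines part the roles. The control columns are mostly red and the 5% columns mostly blue in the IFIT to Ifi27 rows, 5% male N975 is below the gene's mean in 42 of the 46 rows, and the GTPase rows Igtp, Ifi47 and Gbp7 are red in the 5% columns, apart from Igtp and Ifi47 in N975.

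Sex was even in each diet and was compared as a factor of its own. Across the diets 2 genes were higher in females, Gbp3 at 0.79 ± 0.23 (edgeR adjusted p = 0.0467) and Psmb8 at 0.58 ± 0.16 (0.0389), against 3.6% of all genes. Cmpk2 was lower in females, at -0.90 ± 0.22 (0.0233), 1 of 46 against 5.34% of all genes. These calls depended on single animals: the count ran from 0 (without N979, N967, N983, N984 or N988) to 7 (without N980 or N987). At an unadjusted edgeR p below 0.05, 12 of the 46 were higher in females (26.1%, against 13.9% of all genes). Lower in females were 3 (6.52%, against 14.8% of all genes). A difference between the sexes in the response to 5% was found for 0 genes by edgeR, among the 46 and among all genes (0%), and likewise for the response to 1% (0%). At an unadjusted p below 0.05 the response to 5% differed for 0 of 46 genes in one direction (2.58% of all genes) and 1 in the other (2.08%), and the response to 1% for 0 and 0 (1.79% and 1.95%). DESeq2 also called 0 of the 46 in both, with 34 and 6 genes in all. Within females the median log2 fold change of the 46 at 5% was -0.65 and within males -0.49, with 2 livers per diet in each. Values were below 0 in both sexes for 32 of the 46 (69.6%), against 29.4% of all genes, and above 0 in both for 5, Zbp1, Ifi35, Gbp7, Igtp and Ifi47 (10.9% against 33.2% of all genes).

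Beyond the 46, a second list held 135 pathway genes, of which 108 were tested. At 5%, 1 rose and 3 fell, where 1.19% and 1.27% of all genes did. All 4 were among 59 tested interferon-induced genes, of which 46 lay below 0, against 48.5% of all genes. Ifitm3, a membrane protein that blocks viral entry, fell by 0.97 ± 0.16 (edgeR adjusted p = 0.00706) and was also lower at 5% than at 1%, by -0.71 ± 0.16 (0.0467), a call that was kept without N979 and lost without any other single liver (adjusted p up to 0.194). It was read at 312 to 512 CPM in controls and 154 to 270.0 CPM at 5%. Samd9l, an antiviral restriction factor, fell by 1.23 ± 0.20 (0.00698), from 27.1 to 32.1 CPM in controls to 9.96 to 15.4 CPM at 5%. Apol9b, an apolipoprotein L gene with a near-identical copy, fell by 1.09 ± 0.25 (0.0387), a call kept without N980, N967, N983 or N971 and lost without any other single liver (adjusted p up to 0.125). Znfx1, an RNA helicase, rose by 0.82 ± 0.20 (0.0489), a call kept without N967 or N975 and lost without any other single liver (adjusted p up to 0.177). It was read at 41.0 to 53.7 CPM in 3 livers at 5%, at 25.5 CPM in N975 and at 20.2 to 27.4 CPM in controls. As with Igtp, N975 lay among the controls. Of 13 tested sensors and adaptors, 5 negative regulators and 17 antigen-presentation genes, 0 passed. In the authors' deposited table of 261 genes, whose contrast is not named, Ifit3 had a log2 fold change of -1.16 with an adjusted p of 0.0278 and Samd9l one of -0.69 with 0.0528.

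Other measures were also compared between the diets. Of the 13 Kupffer cell markers, 12 were below 0 at 1% (median -0.70, 0 past the threshold), with a summed level of 179 to 455 CPM. At 5% against 1%, 12 of the 13 were above 0 (median 0.29), where 34 of the 46 interferon genes were below 0. Male N975 had both the lowest interferon score and the lowest marker sum, whereas N979, with the highest score, had a sum of 395 CPM against 709 CPM in N980 and 455 CPM in N984. Of 8 markers of sinusoidal endothelium, 0 passed in any diet comparison. Of these markers 7 were below 0 at 5% against control (median -0.43), 1 at 1% against control (median 0.13) and all 8 at 5% against 1% (median -0.62). Their sum was 166 to 289 CPM in controls, 216 to 331 CPM at 1% and 152 to 215 CPM at 5%, so the livers at 1% and at 5% did not overlap. Markers of plasmacytoid dendritic cells, a source of type I interferon, summed to 0.369 to 1.60 CPM over all livers and were not tested. Of 7 hepatocyte markers, whose sum of 100810 to 194090 CPM marks the tissue as liver, 0 passed and 7 were below 0 at 5%. Of 12 clock genes 4 rose and 3 fell at 5%, with Dbp, an output gene of the clock, at 0.157 to 1.10 CPM in controls and 12.7 to 40.0 CPM at 5%. The part of the other cell markers and of the clock genes was not tested either.

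**Figure D5:**
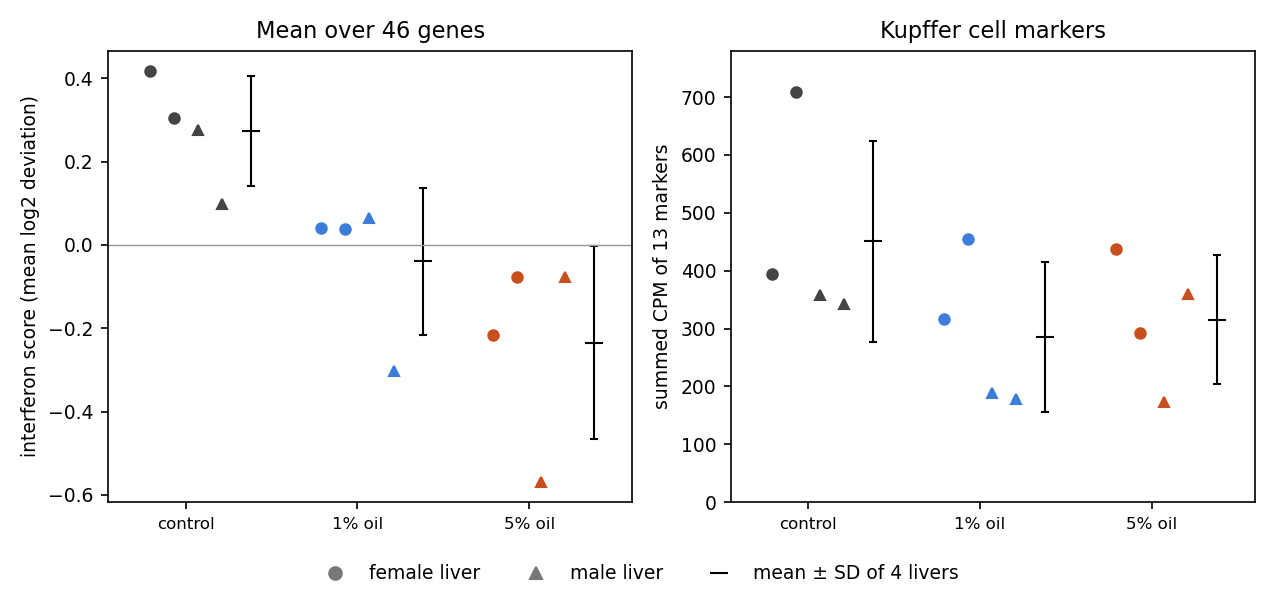
Left, the interferon score of each liver (mean log2 deviation over 46 genes); right, the summed CPM of 13 Kupffer cell markers; circles are females, triangles males, and the bar is the mean ± SD of 4 livers. Scores of controls (0.10 to 0.42) lie above those at 5% (-0.57 to -0.08), while the marker sums overlap between all diets.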

How the data were processed

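Poly(A) RNA of 12 livers was sequenced from stranded libraries, per the labels' protocols, from RNA with an integrity number above 7. The authors deposited estimated counts per gene and per transcript, CPM for a subset of genes, and a 261-gene table of log2 fold changes with p-values, raw and adjusted, from a contrast the file does not name. Per the submitters' processing notes, kallisto, edgeR, limma and build GRCm39 were used, with no versions given. That table also carries the authors' deposited score per liver and gene, CPM-like values that were used in no test. Whether counting used the strand is not stated, so overlapping and antisense genes are uncertain, and reads of near-identical copies are shared out by estimation. The labels used here name 4 livers per diet, whereas the design text of the series speaks of 6; the 12 labelled livers were analysed. Animal numbers are not shared between diets, and p-values weigh a difference against the spread between these animals.

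Totals ran from 5291385 to 15674130 reads per liver, and the 46 genes had 143 (Oas3) to 26271 (Iigp1) reads over the 12 livers. Counts were rounded (11.7% of cells were not whole) and fitted with edgeR 4.0.16 (R 4.3.3), after filterByExpr on diet and sex, with TMM factors, a robust quasi-likelihood fit of diet plus sex over all 12 livers, and 2-sided tests with Benjamini-Hochberg adjustment over 13814 genes at 0.05. A fit of the 6 groups of diet and sex gave within-sex values and sex differences. Log2 fold changes carry standard errors, derived as the absolute log2 fold change divided by the square root of the quasi-likelihood F statistic. Scores used a prior count of 2. The script was tested on simulated data. Symbols matched 48845 of 49398 IDs. Alternatives were RLE and upper-quartile factors, no filter, at least 50 reads in 4 libraries, DESeq2 1.42.0, limma 3.58.1 (voom, and trend on the deposited CPM plus 0.5), no sex term, summed transcripts, and each liver left out. Full values are given for members past the threshold and for the member of smallest p in each of 10 roles. The members and lists were chosen with earlier results of these data known. Promoters came from a RefSeq table on build GRCm38.p6 and were used for letters only, since the counts rest on another build. One result of the pathway lists is not reported here.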

Additional observations from a re-analysis of the deposited data

Results flagged for a closer look

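In each diet group of 4 livers, the highest and lowest values of 11 genes and of the score were compared with the rest by Dixon's criterion, 36 groups in all. In 6 groups a liver stood apart, where chance gives about 1 in 20 groups. The groups are not independent, since the same livers recur for each gene and the score includes these genes, so the rate is only a guide. Control female N980 had 10.099 CPM of Dhx58, against 13.009 to 13.598 CPM in the other controls. Control female N979 had 9.2467 CPM of Mx2, against 3.4996 to 4.0752 CPM. At 5%, male N975 had 2.5466 CPM of Isg15, against 4.0493 to 4.0619 CPM in the other 3 livers, and 32.064 CPM of Igtp, against 81.796 to 88.549 CPM. Also at 5%, male N976 had 64.12 CPM of Ifi27, against 56.991 to 58.163 CPM. At 1%, male N972 had a score of -0.30254, against 0.039219 to 0.064423. Both of the N975 values are below the rest of its diet, which for Igtp places it among the controls and for Isg15 farther from them. Left out, N975 changes the call of Igtp at 5% (1.19, edgeR adjusted p = 0.00693) but not that of Isg15.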

How the results depend on the processing

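The falls of Ifit1, Ifit3, Isg15 and Ifi27 at 5% passed in all 21 alternatives tried. Dhx58 passed in 15 and Irf7 in 9, and Igtp, above control, in 5. Calls over all genes rose too where the count of members rose without a filter or by DESeq2, so both are given. Of the 46 genes 6 passed at 5% (340 genes in all), 11 without a filter on low counts (10 lower, 1 higher; 1011 in all), 15 by DESeq2 (14 lower, 1 higher; 749 in all) and 4 to 6 with 1 liver left out. At 1% the count was 0 (31 in all), and 3 without a filter (649 in all), 3 by DESeq2 (266 in all) and 0 to 2 with 1 liver left out. For 5% against 1% it was 0 (184 in all), and 5 without a filter (1276 in all), 4 by DESeq2 (699 in all) and 0 to 2 with 1 liver left out. Between the sexes it was 3 (1235 in all), and 5 with upper-quartile factors, 8 without a filter (2375 in all), 6 with at least 50 reads in 4 libraries, 6 by DESeq2 (2079 in all), 5 by limma trend on the deposited CPM and 0 to 7 with 1 liver left out. The median log2 fold change at 5% moved from -0.60 to -0.41 with at least 50 reads in 4 libraries and to -0.36 on the deposited CPM, where fewer of the 46 were tested (38 and 43). With all 46 tested, it was -0.42 without N979, -0.49 without N987 and from -0.57 to -0.65 without any other single liver. On the deposited CPM the median over all genes was 0.17 at 5%, and 30 of 43 tested members lay below 0. Lgals3bp, Parp14, Dtx3l, Gbp2, Iigp1 and Tap1, all near 0, changed sign there. Ifngr1, 0.08 at 5%, ranged from -0.0568 (without N979) to 0.208 (without N980) with 1 liver left out, and was also below 0 without N987. The cause of these changes was not tested. No paired analysis was possible because no animal number is shared between diets. Members at 1 to 5 CPM rest on few reads per liver, which limits what can be shown for them.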
